A study of Mus musculus with 27 samples.

Results

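The data described here are the gradient in gene expression across the 3 chemotherapy groups of a mouse study of colitis-associated colon neoplasia. The groups were scored 0 for CAC_F, 1 for CAC_FP and 2 for CAC_FPL, and a straight line over these scores was fitted to each gene. The line used 16 of the 27 libraries of the series and 15080 of the 39971 genes in the table, namely those that reached an FPKM (fragments per kilobase, scaled for library depth) of 1 in 5 or more of the 27 libraries. All animals were BALB/c mice labelled as wild type. CAC_F mice (n = 5) carried neoplasia induced with AOM/DSS, received FOLFOX by the intraperitoneal (i.p.) route, and were given saline into the stomach (i.g.). CAC_FP mice (n = 5) carried the same neoplasia and received FOLFOX and, i.g., a probiotic complex. CAC_FPL mice (n = 6) received loperamide i.g. on top of these. CAC mice (n = 5; AOM/DSS, saline by both routes) and NC mice (n = 6; no AOM/DSS, saline by both routes) serve below as reference levels and had no part in the line. Tissue was taken 1 week after chemotherapy had begun, and was a segment of colon holding tumor in the CAC groups and colon in NC. Each step of the order adds 1 agent, so the scores count added agents and are not doses. There was no group with loperamide alone or with FOLFOX and loperamide, and the labels leave out the probiotic strains, the amounts given and the ages of the mice. The sources also do not state that each library came from a separate mouse, so p-values measure the spread between these libraries.

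Azoxymethane (AOM) is a carcinogen that damages DNA in the colon, and dextran sulfate sodium (DSS) irritates the mucosa, so the pair gives tumors in a setting of inflammation. FOLFOX joins folinic acid and fluorouracil, which starve dividing cells of thymidylate, with oxaliplatin, which cross-links DNA. Such drugs injure the intestinal lining as well as the tumor: damaged cells switch on p53 targets, the lining loses mature absorptive and goblet cells, and cytokines and matrix-degrading enzymes are released during injury and repair. Loperamide activates opioid receptors of the gut wall and slows transit.

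The 16 libraries held 61433532 to 77206403 counts each, and the 27 held 56687812 to 79709845. Levels are given in CPM, counts scaled to a common library total with factors from trimmed means of M values (TMM), and are compared within a gene. The 11 measured markers of colon epithelium had a mean log2 CPM of 8.45 in CAC_F 2 and of 9.12 to 9.69 in the other 15 libraries. CAC_F 2 was also the highest of the 16 in the mean log2 CPM of endothelial genes (5.47, the others 3.53 to 4.81) and of macrophage and monocyte genes (6.11, the others 4.48 to 5.46). Of the genes of other gut organs, 10 of 17 small intestine genes and 1 of 11 pancreas genes passed the filter. The pancreas gene, the elastase gene Cela1, had a log2 CPM of 7.31 in CAC_FPL 3 and of 3.24 to 4.57 in the other 15. Libraries stood apart across many genes as well. On the first principal component of the 2000 most variable genes (28.1% of the variance) CAC_F 1 and 2 lay at -39.6 and -58.7, whereas CAC_FPL 1, 2 and 3 lay at 47.4, 51.6 and 52.0. CAC_FPL 4 and 6 lay at -8.04 and -18.9 on this component, among the libraries of the other groups. CAC_FPL 3 was also far from the rest on the second component (66.0, 15.8% of the variance). In bulk tissue, fewer cells of a type and less RNA per cell cannot be told apart.

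Along the order, the genes that fell included the cytokine gene Il1a, the collagenase gene Mmp13, the growth factor gene Areg, the p53 targets Cdkn1a and Mdm2 and the hexokinase gene Hk2. The genes that rose included the pentraxin genes Mptx1 and Mptx2, the oxidase gene Hao2, the goblet cell factor Creb3l1, the gluconeogenesis gene Pck1, the fatty acid receptor gene Ffar2 and the haemoglobin genes. At a Benjamini-Hochberg adjusted p below 0.05 in edgeR's quasi-likelihood test, 455 of the 15080 genes were called on the slope (3.02%), 268 of them higher (1.78%) and 187 lower (1.24%). Here and below, a gene was called where it passed this edgeR threshold, and calls by DESeq2, which made 2000 (14.1% of 14142 genes with an adjusted p; 7.5% higher and 6.64% lower), are named as such. The slope is the log2 change per step, so that the whole order spans 2 steps, and it is given ± its standard error (SE). Among called genes the median size of the slope was 0.39, and it reached at least 0.5 in 92 genes that rose and 64 that fell. Over all genes tested the median slope was 0.01 and 52.6% of slopes were positive. With no adjustment, 4187 genes had p below 0.05 (27.8%), 2218 of them higher (14.7%) and 1969 lower (13.1%), and the smallest adjusted p was 0.022.

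The means of 453 of the 455 called genes moved the same way in both steps, against 8017 of all genes tested (53.2%), a count that the fit of a line favours. The first step was the larger for 308 called genes and the second for 147, and it was the larger for 8944 of all genes tested (59.3%). Of the called genes that fell, 158 of 187 had the larger first step (84.5%), beside 61.1% of all genes with a negative slope. Of those that rose, 150 of 268 did (56.0%), beside 57.7% of all genes with a positive slope. The difference between these shares was not tested, and 8 of the 455 called genes had an unadjusted p below 0.05 for unequal steps. No gene passed the adjusted threshold in edgeR for a departure from the line, that is, for a difference between the steps (0.0%; 517 genes at an unadjusted p below 0.05, 3.43%; 2 genes by DESeq2). Neither step passed by itself: the test of CAC_FP against CAC_F called 0 genes (0.0%; 1927 at an unadjusted p below 0.05, 12.8%; 64 by DESeq2) and that of CAC_FPL against CAC_FP called 0 (0.0%; 808 unadjusted, 5.36%; 12 by DESeq2). The outer groups alone, CAC_FPL against CAC_F, gave 254 calls (1.68%), 153 higher (1.01%) and 101 lower (0.67%), with 4168 genes at an unadjusted p below 0.05 (27.6%). CAC_F and CAC_FPL libraries did not overlap for 232 called genes, 138 higher and 94 lower, against 477 genes of all tested (3.16%), of which 257 were higher (1.7%) and 220 lower (1.46%). No gene had the libraries of all 3 groups in order without overlap (0.0%).

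**Figure D1:**
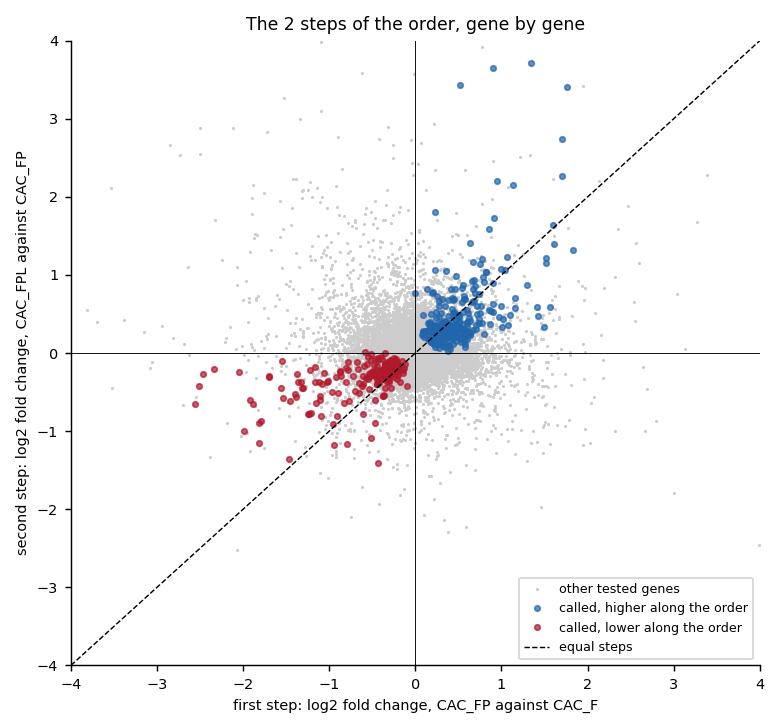
Log2 fold change of the first step (CAC_FP against CAC_F, horizontal axis) and of the second (CAC_FPL against CAC_FP, vertical axis) for each gene tested; the dashed line marks equal steps, and 21 genes lie outside the axes. The called genes lie at the upper right and the lower left, and those that fell lie mostly left of the dashed line, where the first step was the larger.

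The number of calls hung on single libraries. Without CAC_F 1, CAC_F 2 or CAC_FPL 1 the edgeR test called 0 genes, with 3407, 3326 and 3203 genes at an unadjusted p below 0.05. DESeq2 was not run without single libraries. Calls fell to 4 without CAC_FPL 2, to 12 without CAC_F 4, to 112 without CAC_FPL 3, to 117 without CAC_FP 2, to 146 without CAC_F 5, to 176 without CAC_FP 1 and to 204 without CAC_FP 5. They rose to 739 without CAC_FP 4, 966 without CAC_FPL 4, 1191 without CAC_FPL 6 and 1322 without CAC_FPL 5. All 455 genes kept the sign of their slope in each of the 16 fits that left out 1 library, and 454 kept an unadjusted p below 0.05 in each. Their choice by the slope in the same libraries favours this, and of all genes tested 11602 kept their sign (76.9%). The exception was Sval1, at 0.0658 without CAC_FPL 3.

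**Figure D2:**
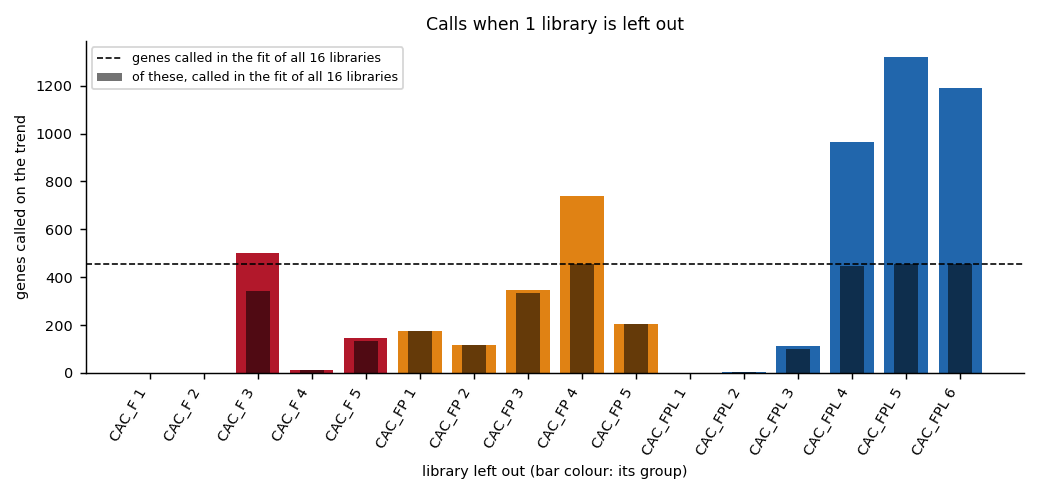
Genes called on the trend (vertical axis) when the library named on the horizontal axis was left out of the fit; bar colour marks the group of that library, the dark inner bar the genes also called with all 16 libraries, and the dashed line the 455 calls of that fit. No bar stands at CAC_F 1, CAC_F 2 and CAC_FPL 1, and the tallest, 1322, stands at CAC_FPL 5.

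Of 22 measured cytokine and protease genes of inflammation, Il1a, Mmp13 and Lif fell, 0 rose, and all 22 slopes were negative with a median of -1.28. The gene Il1a (chromosome 2, 129141530 to 129151892, minus strand, in the coordinates of the deposited table, for which no build is named) encodes interleukin-1 alpha, an alarm cytokine of injured cells. It stood at 23.8, 49.4, 1.21, 7.87 and 3.37 CPM in the 5 CAC_F libraries, at 7.73, 1.91, 2.55, 1.06 and 1.24 in the 5 CAC_FP libraries, and from 0.856 to 4.22 (median 1.13) in the 6 CAC_FPL libraries. CAC_F 1 and 2 were the high libraries, CAC_F 3 and 5 lay within the ranges of both other groups, and the groups overlapped. Its slope was -1.59 ± 0.39 (edgeR adjusted p = 0.0419), a mean 9.34-fold lower in CAC_FPL than in CAC_F. The reference levels were 0.541 ± 0.279 CPM in CAC (SD, n = 5) and 0.498 ± 0.379 in NC (SD, n = 6).

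Mmp13, a collagenase of tissue remodelling, was at 28.1, 210, 10.9, 8.12 and 22.2 CPM in CAC_F, at 6.93, 14.1, 8.38, 8.81 and 10.7 in CAC_FP, and from 2.56 to 16.4 (median 6.72) in CAC_FPL. CAC_F 3 and 4 lay inside the ranges of both other groups, and CAC_F 2 was far above all other libraries. The Mmp13 slope was -1.45 ± 0.35 (edgeR adjusted p = 0.0405) and -0.61 without that library. Lif, an interleukin-6 family cytokine, read 109, 90.0, 10.1, 17.2 and 25.6 CPM in CAC_F, 13.7, 13.5, 10.4, 4.43 and 7.88 in CAC_FP, and 3.46 to 17.3 (median 8.22) in CAC_FPL. CAC_F 1 and 2 were again the high libraries, CAC_F 3 lay inside the ranges of both other groups, and CAC_F 4 lay inside the range of CAC_FPL. Lif fell by 1.25 ± 0.29 per step on the log2 scale (edgeR adjusted p = 0.0371). Il1b, the secreted interleukin-1 of myeloid cells, did not pass (slope -1.27 ± 0.38, adjusted p = 0.0627), with 75.4, 114, 2.86, 17.0 and 11.5 CPM in CAC_F, 31.5, 6.43, 15.7, 3.48 and 4.90 in CAC_FP, and from 2.43 to 15.0 (median 6.37) in CAC_FPL. Nor did the neutrophil chemokine Cxcl2 (slope -2.46, adjusted p = 0.0521), the stromelysin gene Mmp10 (-1.46, 0.0555) or the prostaglandin synthase Ptgs2 (-1.58, 0.0701).

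The mean log2 CPM of this inflammatory list was 5.66, 6.05, 1.32, 2.73 and 2.97 in CAC_F 1 to 5, 0.16 to 3.64 in CAC_FP, and from 0.07 to 3.27 in CAC_FPL. CAC_F 1 and 2 were the only libraries of the 16 above the CAC_FP maximum. With both of them left out together, edgeR called 0 genes on the trend, the slope of Il1a was -0.60, that of Lif -0.47, that of Mmp13 -0.45 and that of Il1b -0.31. CAC lay at -0.47 ± 0.74 (SD, n = 5) and NC at -0.52 ± 0.55 (SD, n = 6) on this mean. CAC_F 2, with the highest mean of this list, was the library with the lowest epithelial and the highest endothelial and macrophage means, whose part in these slopes was not tested. Of 7 measured neutrophil genes edgeR called none and DESeq2 called 3 lower, and 6 of 7 slopes were negative (median -0.74). The calprotectin subunits S100a8 (slope -1.43 ± 0.39, adjusted p = 0.0521) and S100a9 (-1.63 ± 0.48, 0.0607) had their highest mean in CAC_F. S100a8 stood at 2.02, 7.11, 1.28, 8.05 and 0.564 CPM in CAC_F, 0.111 to 0.78 in CAC_FP, and from 0.107 to 1.54 in CAC_FPL.

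The regulators Tnfaip3 and Ccrl2 also fell. Tnfaip3 encodes A20, a brake on NF-kB signalling that is itself induced by it. Its CPM were 696, 272, 81.0, 122 and 77.3 in CAC_F, 128, 74.8, 60.4, 51.8 and 69.2 in CAC_FP, and from 36.6 to 99.6 (median 61.3) in CAC_FPL. CAC_F 1 was the highest, and CAC_F 3 and 5 lay inside the range of CAC_FPL. Its slope was -0.99 ± 0.25 (edgeR adjusted p = 0.045), and -0.56 without CAC_F 1. Ccrl2, a chemerin-binding receptor of activated leukocytes and endothelium, fell by 1.35 ± 0.34 per step (adjusted p = 0.0452), and by 0.66 without CAC_F 1, which was at 94.9 CPM against 4.11 to 25.7 in the other CAC_F libraries. Adam8, a membrane protease of leukocytes and tumor cells, had 45.2, 88.4, 26.4, 48.1 and 45.2 CPM in CAC_F, 22.7, 26.7, 13.3, 13.1 and 24.7 in CAC_FP, and 11.1 to 21.1 (median 14.6) in CAC_FPL. All CAC_F libraries of Adam8 were above all CAC_FPL libraries, and its slope of -0.84 ± 0.14 had an adjusted p of 0.0251. Plat, encoding tissue-type plasminogen activator, (-0.99 ± 0.24, 0.0405) fell as well. Of 19 measured macrophage and monocyte genes edgeR called none, DESeq2 called 2 higher and 2 lower, and 15 of 19 slopes were negative (median -0.26). Among them were Spp1, encoding osteopontin (-0.86 ± 0.23, 0.0506), and the fractalkine receptor Cx3cr1 in the opposite direction (0.40 ± 0.12, 0.0714).

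The sequences just before the start sites of Il1a, Mmp13, Tnfaip3, Areg and Pck1 are shown because these called genes carry a match to the motifs counted next; the first 4 fell and Pck1 rose. They are the 140 bases before the RefSeq gene start on the GRCm38.p6 assembly, 5′ to 3′ on the strand of the gene, and their coordinates cannot be mixed with those of the deposited table. Capitals mark matches, on either strand, to the AP-1 motif TGANTCA (Il1a, Mmp13, Tnfaip3), to the NF-kB motif (the pair of 10-base runs in Tnfaip3) or to the CRE-like motif TNACGTCA (Areg, Pck1), and matches to different motifs do not overlap in these windows. Their positions are chr2:129309973-129310112 (minus) for Il1a, chr9:7272374-7272513 (plus) for Mmp13, chr10:19015411-19015550 (minus) for Tnfaip3, chr5:91139459-91139598 (plus) for Areg and chr2:173152933-173153072 (plus) for Pck1.
Il1a: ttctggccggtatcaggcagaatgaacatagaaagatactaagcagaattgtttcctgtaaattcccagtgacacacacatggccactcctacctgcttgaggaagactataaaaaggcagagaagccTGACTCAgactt
Mmp13: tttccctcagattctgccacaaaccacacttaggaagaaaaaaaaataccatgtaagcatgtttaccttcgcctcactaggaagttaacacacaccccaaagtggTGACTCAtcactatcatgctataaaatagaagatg
Tnfaip3: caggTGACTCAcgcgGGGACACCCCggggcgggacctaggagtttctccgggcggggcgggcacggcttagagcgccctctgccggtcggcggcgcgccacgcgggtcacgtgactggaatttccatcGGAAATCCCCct
Areg: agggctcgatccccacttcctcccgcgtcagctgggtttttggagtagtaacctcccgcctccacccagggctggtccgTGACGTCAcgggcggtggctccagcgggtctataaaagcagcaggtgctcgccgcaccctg
Pck1: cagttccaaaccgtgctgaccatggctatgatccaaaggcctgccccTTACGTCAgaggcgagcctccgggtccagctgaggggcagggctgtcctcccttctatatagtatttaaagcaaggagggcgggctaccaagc

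Over the 250 bases before the start, 10320 of the genes tested had a window in the RefSeq table. The AP-1 motif was in 6.03% of them, in 16 of 141 called genes that fell (11.3%) and in 10 of 205 that rose (4.88%). The NF-kB motif was in 5.55% of tested genes, in 13 of the 141 (9.22%) and in 12 of the 205 (5.85%). The CRE-like motif was in 4.7% of tested genes, in 9 of the 141 (6.38%) and in 6 of the 205 (2.93%). Over all 32851 windows of the table the shares were 6.75%, 3.9% and 2.52%. These are counts of letters and were not tested.

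Of 18 measured genes of the fetal-like state that colon epithelium enters during repair, 4 were called, all lower (among them Areg, Anxa1 and Msln), and 16 of 18 slopes were negative with a median of -0.53. Areg, encoding the EGF receptor ligand amphiregulin, was at 144, 81.2, 39.6, 72.3 and 74.8 CPM in CAC_F, at 47.6, 49.2, 26.5, 12.6 and 29.1 in CAC_FP, and from 9.13 to 46.8 (median 19.6) in CAC_FPL. Its highest library was CAC_F 1, and CAC_F 3 lay inside the ranges of the other groups. It fell by 0.87 ± 0.21 per step (edgeR adjusted p = 0.0419), to 3.41-fold lower in CAC_FPL than in CAC_F, with CAC at 5.42 ± 2.86 and NC at 4.92 ± 2.53 CPM. Anxa1, encoding annexin A1, fell by 0.44 ± 0.11 (adjusted p = 0.0419). For Anxa1 the CAC_F libraries, 300 to 536 CPM, lay above the CAC_FPL libraries, 156 to 277 CPM. Msln, encoding mesothelin, fell by 1.34 ± 0.30 (0.0355), from 10.7 to 60.3 CPM in CAC_F to 1.39 to 11.7 CPM in CAC_FPL. Members that did not pass include the urokinase receptor gene Plaur (-0.71, adjusted p = 0.0645), Ly6a (-0.65, 0.106) and Clu (-0.45, 0.226).

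Several epithelial and matrix genes outside these lists fell as well. Prss22, a serine protease of epithelia, had 80.9, 80.0, 23.4, 39.6 and 28.6 CPM in CAC_F, 25.2, 23.9, 23.0, 2.56 and 16.3 in CAC_FP, and 1.33 to 11.8 (median 6.98) in CAC_FPL. All CAC_F libraries were above all CAC_FPL libraries, and CAC_FP overlapped both. Its slope was -1.41 ± 0.28 (edgeR adjusted p = 0.0306), against 0.141 ± 0.221 CPM in CAC and 0.203 ± 0.132 in NC. Spink6, a Kazal-type protease inhibitor, fell by 1.48 ± 0.37 (0.0449), with 3.30 to 15.7 CPM in CAC_F, 0.877 to 6.81 in CAC_FP, 0.123 to 3.91 in CAC_FPL and 0 CPM in all NC libraries. Aldh1a3, which makes retinoic acid, fell by 1.02 ± 0.23 (0.0355) and Trim15, a tripartite-motif protein, by 0.98 ± 0.23 (0.0398). Papln, encoding the matrix protein papilin, was at 29.6, 30.8, 18.2, 23.5 and 21.4 CPM in CAC_F, 17.3, 11.3, 5.35, 8.09 and 11.3 in CAC_FP, and from 3.70 to 11.4 (median 4.79) in CAC_FPL. Its CAC_F libraries lay above the libraries of both other groups, and its slope was -0.98 ± 0.15 (0.0251).

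Of 18 stratified-type genes 7 were measured and 2 called, both lower, with 5 negative and 2 positive slopes (median -0.37). The positive slopes were those of Krt17 (0.47, adjusted p = 0.209) and Sprr1a (0.04, 0.897). Krt4, a keratin of squamous epithelium, was at 4.23, 7.73, 3.42, 3.54 and 23.3 CPM in CAC_F, 3.50, 4.80, 0.354, 1.32 and 0.625 in CAC_FP, and from 0.21 to 1.74 (median 1.09) in CAC_FPL. The CAC_F libraries were all above the CAC_FPL libraries, and CAC_FP spanned both. Its slope was -1.49 ± 0.34 (edgeR adjusted p = 0.037). The cornified envelope genes Sprr2a1, Sprr2a2 and Sprr2a3 had slopes of -0.36 ± 0.062, -0.36 ± 0.061 and -0.37 ± 0.066 (0.0251, 0.0251 and 0.0256). They are near-identical copies, 2 of which overlap in the table, so their counts cannot be taken as separate evidence. Sprr2a2 had 512 to 571 CPM in CAC_F, 283 to 472 in CAC_FP, and from 266 to 394 in CAC_FPL, so CAC_F stood above both other groups. NC stood at 479 ± 187 CPM. Tuft cell genes gave 1 call among 8 (median slope -0.03): Avil, encoding the actin-binding protein advillin, at 23.7, 32.4, 21.2, 30.0 and 24.5 CPM in CAC_F, 7.55, 15.1, 13.3, 10.2 and 7.41 in CAC_FP, and from 4.38 to 10.7 (median 7.99) in CAC_FPL. No CAC_F library of Avil overlapped either other group, and its slope was -0.86 ± 0.12 (0.022). The tuft cell genes Dclk1 (slope -0.02, adjusted p = 0.933), Trpm5 (0.16, 0.687) and Sh2d6 (-0.16, 0.681) were not called. Gnat3 (4.88, 0.0598) and Alox5ap (0.43, 0.138) sloped upward and were not called either. Of the 8 tuft cell slopes 3 were positive and 5 negative, with 2 higher and 2 lower at an unadjusted p below 0.05.

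**Figure D3:**
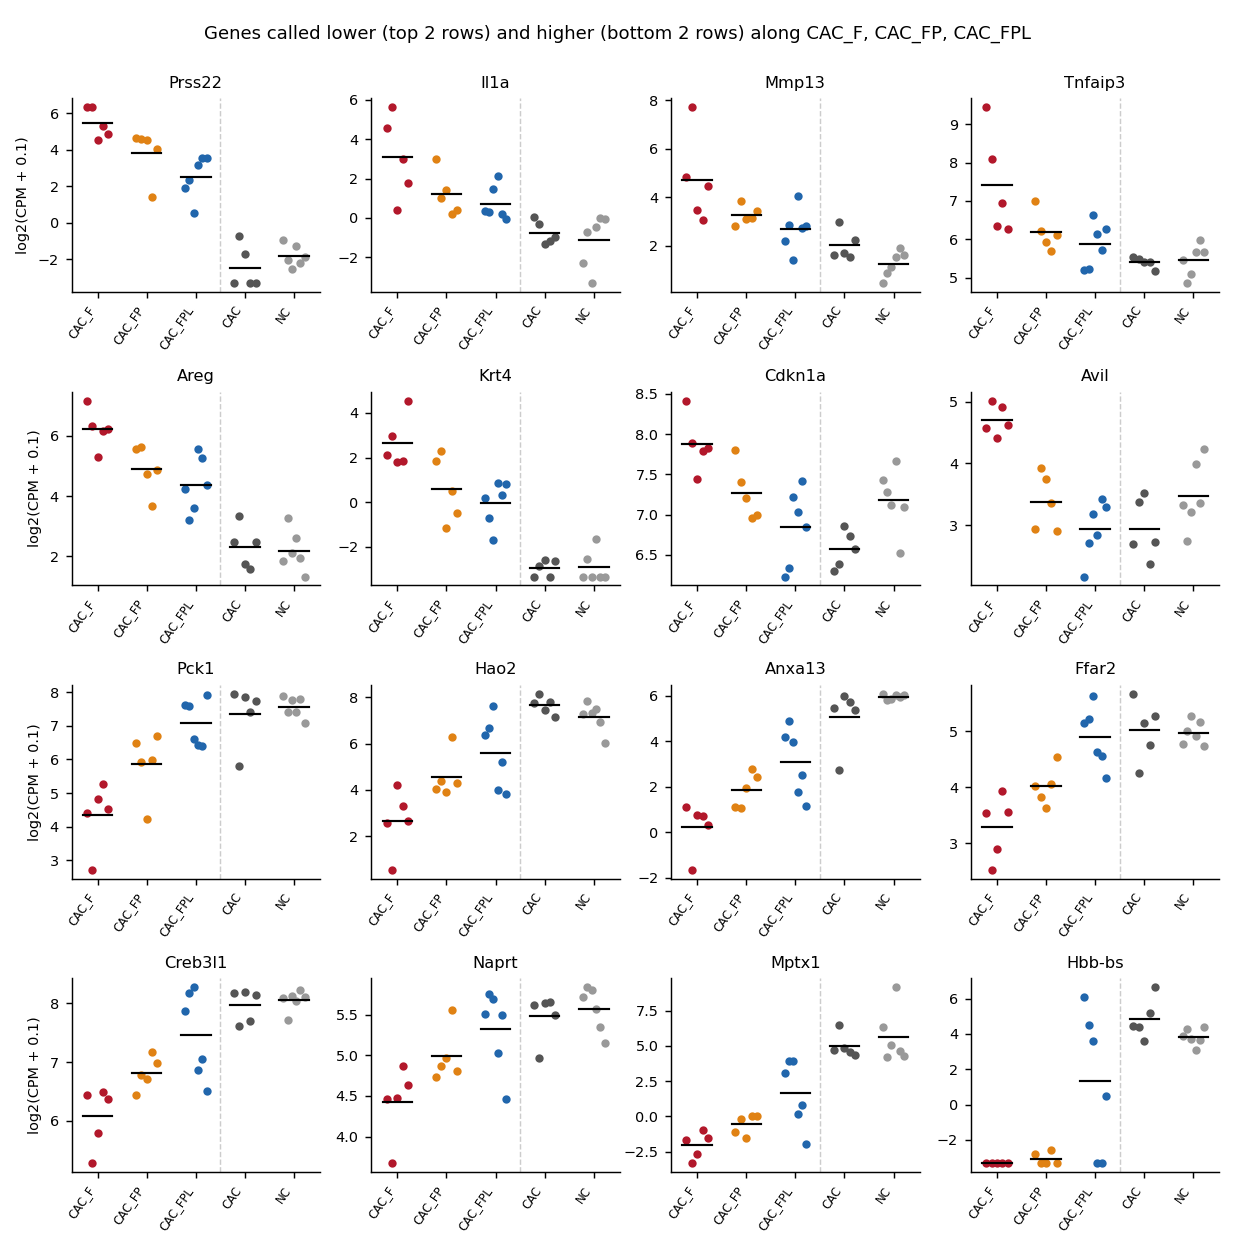
Expression of 16 called genes in each library as log2(CPM + 0.1) on the vertical axis, by group on the horizontal axis; each point is a library, black bars are means of the log2 values, and the dashed line parts the FOLFOX groups from the reference groups CAC and NC. The top 2 rows step down and the bottom 2 rows step up from CAC_F to CAC_FPL, with the reference groups nearer to CAC_FPL than to CAC_F in panels such as Prss22, Areg, Pck1 and Hao2.

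Of 27 measured genes that p53 activates, 6 fell and 0 rose, with 21 negative slopes and a median of -0.31. Cdkn1a, encoding the cell cycle inhibitor p21, was at 341, 238, 173, 222 and 227 CPM in CAC_F, 222, 170, 147, 124 and 127 in CAC_FP, and from 75.0 to 171 (median 123) in CAC_FPL. The lowest CAC_F library just cleared the highest CAC_FPL library, and CAC_FP overlapped both. Its slope was -0.50 ± 0.11 (edgeR adjusted p = 0.0355; exact permutation p = 0.000639, two-sided), and CAC stood at 95.9 ± 15.5 CPM. Mdm2, which targets p53 for degradation, was at 111, 99.1, 66.5, 84.7 and 79.2 CPM in CAC_F, 80.7, 84.5, 62.6, 60.8 and 63.5 in CAC_FP, and from 47.1 to 63.9 (median 52.9) in CAC_FPL. CAC_F and CAC_FPL did not overlap, and the slope was -0.35 ± 0.067 (0.0306). Ddit4, an inhibitor of mTOR signalling, fell by 0.52 ± 0.10 (0.0307) and Zmat3, an RNA-binding tumor suppressor, by 0.37 ± 0.076 (0.0323). The death effector gene Bax (-0.34, 0.0449) and the nuclease gene Aen (-0.32, 0.0452) complete the 6. Not called were, among others, Ccng1 (-0.38, 0.0636), Gdf15 (-0.63, 0.0952) and the death receptor gene Fas (-0.30, 0.131).

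Proliferation genes gave no call. All 24 measured DNA replication genes and all 22 mitosis genes had negative slopes (medians -0.24 and -0.27), yet edgeR called 0 of either list, with 12 and 8 members at an unadjusted p below 0.05. Rrm2, a subunit of ribonucleotide reductase, was at 188, 187, 183, 171 and 208 CPM in CAC_F, 95.1, 170, 152, 83.7 and 112 in CAC_FP, and from 22.3 to 165 (median 79.0) in CAC_FPL. CAC_F lay above both other groups, and CAC_FPL 3 and 1, at 22.3 and 42.5, were the lowest libraries. Its slope was -0.57 ± 0.19 (adjusted p = 0.0803). Mki67, the proliferation marker Ki-67, had a slope of -0.32 ± 0.10 (0.0777; exact permutation p = 0.0055, two-sided), Mcm4, a subunit of the replicative helicase, -0.32 ± 0.099 (0.0714), and the mitotic kinase gene Cdk1 -0.40 ± 0.14 (0.0928). By DESeq2 all 4 of these genes were called, with adjusted p of 0.0245, 0.0256, 0.0287 and 0.042 for Mcm4, Rrm2, Mki67 and Cdk1, among 3 replication and 4 mitosis genes that it called lower.

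Of 22 measured genes of glycolysis and hypoxia 3 fell (Hk2, Pfkfb3 and Pkm) and 0 rose. Over the list 13 slopes were negative and 9 positive, with a median of -0.09. Hk2, the inducible hexokinase, was at 592, 281, 214, 348 and 170 CPM in CAC_F, 241, 235, 242, 129 and 176 in CAC_FP, and from 111 to 205 (median 138) in CAC_FPL. CAC_F 1 was highest and CAC_F 5 lay inside the CAC_FPL range. Its slope was -0.58 ± 0.13 (edgeR adjusted p = 0.0378). Pfkfb3, which makes the activator of phosphofructokinase, fell by 1.00 ± 0.26 (0.0452) and Pkm, the pyruvate kinase of proliferating cells, by 0.26 ± 0.066 (0.0463). Pkm had 1409 to 1786 CPM in CAC_F and 910 to 1221 in CAC_FPL, without overlap. The lactate dehydrogenase gene Ldha (-0.10, 0.316), Gapdh (-0.08, 0.35) and the glucose transporter gene Slc2a1 (-0.15, 0.303) were not called. Pfkl (0.21, 0.19) and Bnip3 (0.17, 0.55) sloped upward and were not called either. Among 19 Nrf2 and glutathione genes the cystine transporter gene Slc7a11 fell by 0.69 ± 0.16 (0.038), and the glutathione transferase gene Gstm1 rose by 0.65 ± 0.14 (0.0349). Gstm1 had 66.5 to 77.0 CPM in CAC_F, 62.7 to 151 in CAC_FP, and from 92.1 to 258 (median 168) in CAC_FPL, with CAC_F below all of CAC_FPL.

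**Figure D4:**
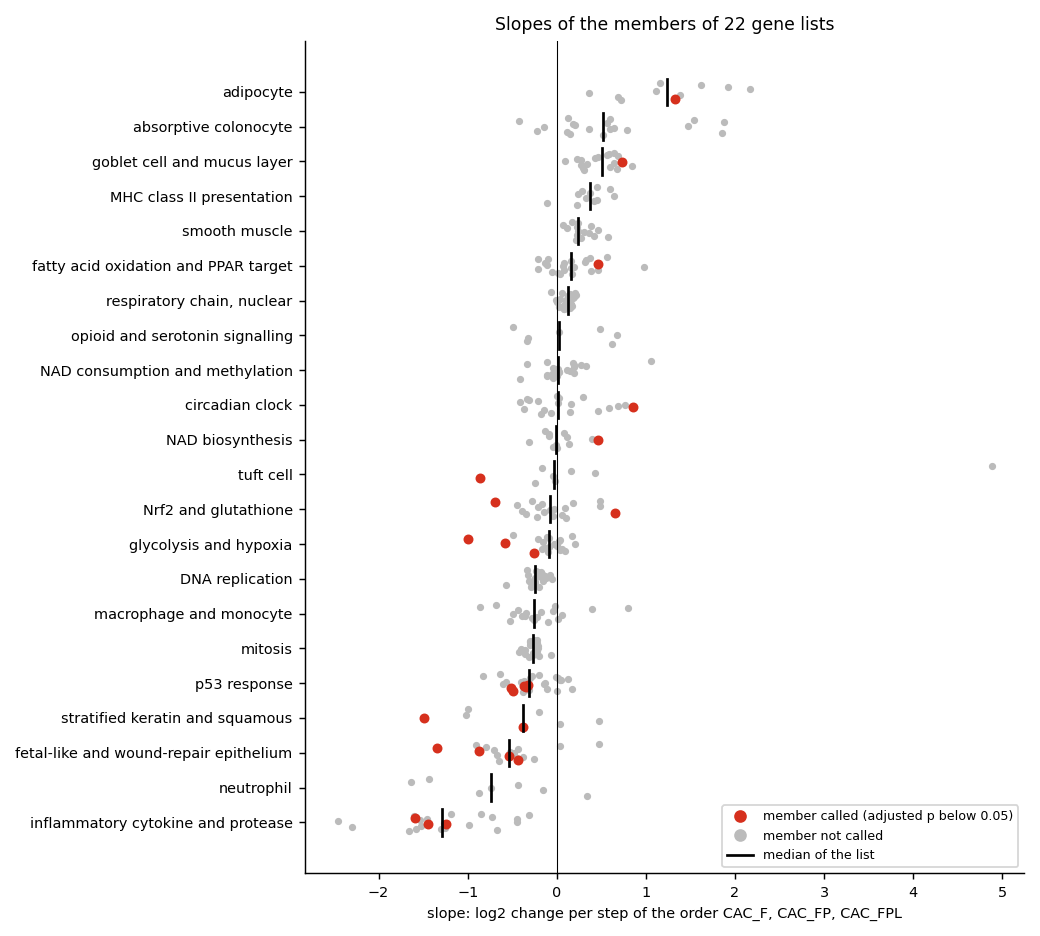
Slopes (horizontal axis, log2 change per step) of the measured members of 22 gene lists (vertical axis), sorted by the list median, which is the black bar; red points are called members and grey points are not. The haemoglobin list, whose 4 measured members all rose more steeply than the adipocyte median, is not drawn. The inflammatory, neutrophil and wound-repair lists lie farthest to the left and the adipocyte list farthest to the right by their medians, the lone grey point at the far right is the tuft cell gene Gnat3 (4.88), and most members of every list are grey.

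Among the genes that rose were Hao2 and Anxa13. Their means rose in both steps, and the means of 453 of the 455 called genes moved the same way in both. Hao2, a peroxisomal hydroxy acid oxidase, was at 5.83, 1.36, 18.4, 9.83 and 6.23 CPM in CAC_F, 16.1, 20.5, 14.7, 77.1 and 19.7 in CAC_FP, and from 13.8 to 194 (median 59.7) in CAC_FPL. CAC_F 2 was the lowest library, CAC_FP 4 stood out upward within its group, and CAC_FPL overlapped both. Its slope was 1.57 ± 0.38 (edgeR adjusted p = 0.0407), a mean 8.91-fold higher in CAC_FPL than in CAC_F, and CAC stood at 207 ± 52.6 CPM. Anxa13, an annexin of gut epithelium, was at 2.05, 0.216, 1.56, 1.52 and 1.15 CPM in CAC_F, 2.06, 2.00, 3.69, 6.77 and 5.17 in CAC_FP, and from 2.11 to 29.1 (median 10.6) in CAC_FPL. All CAC_FPL libraries were above all CAC_F libraries. Its slope was 1.62 ± 0.33 (0.0307).

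Mptx1 and Mptx2 encode mucosal pentraxins, relatives of C-reactive protein made in the gut. Mptx1 (chromosome 1, 174158084 to 174160439) was at 0.215, 0, 0.0596, 0.42 and 0.252 CPM in CAC_F, 0.356, 0.765, 0.246, 0.933 and 0.931 in CAC_FP, and from 0.152 to 15.3 (median 4.88) in CAC_FPL. CAC_FPL 1, 2 and 3 were at 8.12, 15.0 and 15.3 CPM and CAC_FPL 4, 5 and 6 at 1.04, 1.63 and 0.152, so the group was split and its lowest library lay among those of CAC_F. The slope was 2.64 ± 0.50 (edgeR adjusted p = 0.0294) for Mptx1 and 2.33 ± 0.46 (0.0306) for Mptx2, against CAC means of 37.8 ± 29.0 and 71.2 ± 55.1 CPM. The copies are alike in sequence, so reads may be shared between them. Gsdmc4, a member of the gasdermin C family of the gut, had 3.22 to 4.92 CPM in CAC_F, 4.04 to 7.73 in CAC_FP, and 40.0, 304, 19.6, 4.53, 2.47 and 4.86 in CAC_FPL 1 to 6. Its slope of 2.01 ± 0.49 (0.0419) was 0.91 without CAC_FPL 2, and CAC stood at 583 ± 326 CPM.

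Other steep slopes rested on 1 or a few libraries of CAC_FPL. Thrsp, a regulator of fat synthesis, was at 226 and 42.1 CPM in CAC_FPL 1 and 2 and at 0.839 to 3.20 in the other 4, against 0.248 to 1.57 in CAC_F and 0.707 to 1.82 in CAC_FP. The slope of 2.92 ± 0.67 (edgeR adjusted p = 0.037) was 1.75 without CAC_FPL 1. Cyp2c68, a cytochrome P450 of a family of close copies, was at 78.5 CPM in CAC_FPL 3 and at 0.442 to 7.95 in the other CAC_FPL libraries, against 0.39 to 0.581 in CAC_F. Its slope was 2.58 ± 0.56 (0.0355), and 1.47 without CAC_FPL 3. Sval1, encoding a secreted protein named for its likeness to a seminal vesicle antigen, was at 421 CPM in CAC_FPL 3 and at 1.60 to 7.48 in the rest of CAC_FPL, against 1.16 to 3.62 in CAC_F. Its slope was 2.52 ± 0.64 (0.0452), and 0.41 without CAC_FPL 3.

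Goblet cell genes all sloped upward: 18 of 18 were positive with a median of 0.51, 1 was called higher and 0 lower, and 9 had an unadjusted p below 0.05. DESeq2 called 5 higher. The called gene, Creb3l1, is a transcription factor of secretory cells. It was at 86.8, 38.7, 55.4, 89.9 and 82.5 CPM in CAC_F, 86.9, 109, 105, 143 and 126 in CAC_FP, and from 90.8 to 309 (median 183) in CAC_FPL. The CAC_FPL libraries lay above all of CAC_F, by the least for CAC_FPL 6, and the slope was 0.73 ± 0.15 (edgeR adjusted p = 0.0332). CAC stood at 253 ± 48.1 and NC at 267 ± 30.2 CPM. CAC_F 2, lowest for Creb3l1, also had the lowest mean log2 CPM of this list (5.02, the other 15 libraries 5.89 to 8.21), and without it the slope was 0.66 (edgeR adjusted p = 0.0853). The secretory fate genes Gfi1 (0.65, 0.0517), Atoh1 (0.69, 0.0714) and Spdef (0.65, 0.0936) did not pass. Muc2, the gel-forming mucin, ranged from 1873 to 17370 CPM in CAC_F, 3103 to 23800 in CAC_FP, and from 4071 to 20880 in CAC_FPL, with broad overlap. Its slope was 0.30 ± 0.28 (0.495; exact permutation p = 0.229, two-sided).

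Absorptive colonocyte genes gave no call in edgeR among 19 measured, with 16 positive slopes, a median of 0.52 and 4 members at an unadjusted p below 0.05. Guca2a, encoding guanylin, was at 198, 32.8, 157, 188 and 119 CPM in CAC_F, 251, 278, 385, 642 and 267 in CAC_FP, and from 185 to 712 (median 386) in CAC_FPL. CAC_F lay below CAC_FP without overlap, and the second step was small by the means. The slope was 0.78 ± 0.24 (adjusted p = 0.0649), and 0.64 without CAC_F 2, whose mean log2 CPM of this list was the lowest (4.16, the others 4.97 to 6.73). Cyp2c55, a cytochrome P450 of the colon, had a slope of 1.85 ± 0.59 (0.0727), with 1786 and 1475 CPM in CAC_FPL 1 and 2 and 34.9 to 197 in the other 4. The chloride-bicarbonate exchanger gene Slc26a3 had a slope of 0.59 ± 0.31 (0.226; exact permutation p = 0.148, two-sided), and 0.16 without CAC_FPL 3. By DESeq2 the adjusted p was 0.00723 for Guca2a and 0.0111 for Cyp2c55.

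Genes that mark position along the colon varied among the libraries. Hoxa13, a Hox gene of the distal colon, was at 1.60, 19.2, 27.1, 14.8 and 11.6 CPM in CAC_F, 3.83, 1.25, 0.538, 2.99 and 2.54 in CAC_FP and 6.40, 7.60, 56.4, 3.08, 1.97 and 2.47 in CAC_FPL 1 to 6. CAC_F was mostly high, CAC_FP low, and CAC_FPL 3 highest. Its slope was -0.06 ± 0.44 (edgeR adjusted p = 0.936) and took either sign as single libraries were left out (-0.90 without CAC_FPL 3, 0.15 without CAC_F 3). Of 7 measured distal Hox genes 4 sloped upward and 3 downward (median 0.12), with 1 higher and 1 lower at an unadjusted p below 0.05. The mean log2 CPM of this distal list was 0.99 to 3.29 in CAC_F, 0.45 to 2.28 in CAC_FP, and from 1.28 to 3.43 in CAC_FPL. With this mean as a covariate the edgeR count was 774, and 450 of the 455 genes were among them.

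Hba-a1, Hba-a2, Hbb-bs and Hbb-bt, the 4 members of the haemoglobin list among the genes tested, all rose. Hbb-bs (chromosome 7, 103475741 to 103477135, minus strand) was at 0 in all 5 CAC_F libraries, at 0.041 and 0.0696 CPM in CAC_FP 1 and 4 and at 0 in the other 3, and at 69.0, 22.8, 12.2, 0, 0 and 1.31 CPM in CAC_FPL 1 to 6. CAC_FPL 1, 2 and 3 were high, and CAC_FPL 4 and 5 were at 0 like CAC_F, so the groups overlapped. Against a floor of 3 counts over the CAC_F group, the mean was at least 2000-fold higher in CAC_FPL. The slope was positive at an edgeR adjusted p of 0.022, and its fitted size depends on the prior count and is not given as a fold. CAC stood at 38.2 ± 35.5 CPM and NC at 14.8 ± 4.71. Hba-a1 was at 0 to 0.084 CPM in CAC_F, 0 to 0.109 in CAC_FP, and from 0 to 51.7 (median 5.41) in CAC_FPL (0.0294). Hba-a1 with Hba-a2, and Hbb-bs with Hbb-bt, are close copies that may share reads. The same 3 libraries, CAC_FPL 1, 2 and 3, were those high in Mptx1 and on the first principal component, and whether these share a source was not tested.

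**Figure D5:**
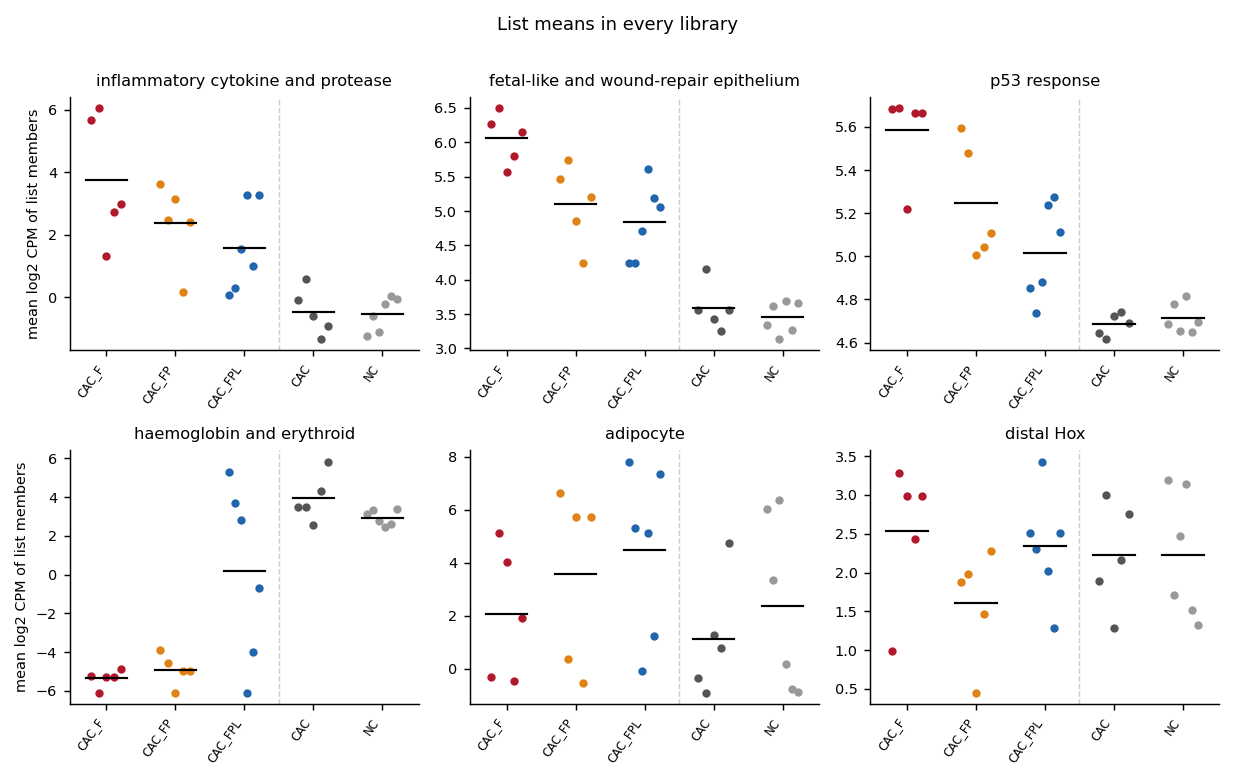
Mean log2 CPM over the measured members of 6 gene lists in each library (vertical axis), by group (horizontal axis); each point is a library and black bars are group means. CAC_F 1 and 2 top the inflammatory panel at 5.66 and 6.05, CAC_FPL 1 to 3 stand at 2.82 to 5.27 in the haemoglobin panel, and the adipocyte panel is split within every group.

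Pck1, the entry enzyme of gluconeogenesis, rose in step with the order. It was at 21.1, 6.48, 28.0, 38.7 and 23.0 CPM in CAC_F, 90.5, 60.5, 18.7, 62.8 and 103 in CAC_FP, and from 85.1 to 239 (median 144) in CAC_FPL. All CAC_FPL libraries were above all CAC_F libraries, and 4 of 5 CAC_FP libraries lay above CAC_F. The slope was 1.33 ± 0.23 (edgeR adjusted p = 0.0251), 6.36-fold between the outer means, with CAC at 183 ± 76.5 and NC at 192 ± 39.4 CPM. Fat cells also express Pck1, and it is 1 of 10 genes of the adipocyte list, whose 10 slopes were positive (median 1.24) with no other call in edgeR. The mean log2 CPM of that list was -0.45 to 5.14 in CAC_F, -0.54 to 6.62 in CAC_FP, and from -0.08 to 7.81 in CAC_FPL. The hormone gene Adipoq had a slope of 2.17 (adjusted p = 0.13). With the list mean as a covariate, an alternative chosen after seeing the data, 387 genes were called by edgeR, 279 of them among the 455.

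Haemoglobins and predicted genes apart, the smallest p-values among genes that rose belonged to Spsb2, Serf2, Ffar2 and Clec2d. Spsb2, an adaptor of a ubiquitin ligase, was at 7.76, 6.82, 7.97, 8.68 and 9.42 CPM in CAC_F, 11.2, 12.8, 9.30, 8.83 and 11.2 in CAC_FP, and from 11.8 to 14.8 (median 13.8) in CAC_FPL. CAC_F and CAC_FPL were far apart and CAC_FP lay between, touching both. Its slope was 0.37 ± 0.06 (edgeR adjusted p = 0.0251). The exact permutation p of 1.59e-05 (two-sided) was not adjusted, and Spsb2 was picked by its small p in the same libraries. Serf2, a small protein that promotes protein aggregation, was at 115, 108, 116, 126 and 124 CPM in CAC_F, 139, 133, 144, 148 and 145 in CAC_FP, and from 145 to 205 (median 170) in CAC_FPL. Each CAC_FP library of Serf2 was above each CAC_F library, and CAC_FP met CAC_FPL at its lower edge. Its slope was 0.27 ± 0.045 (0.0251). Ffar2, the receptor for short-chain fatty acids made by gut bacteria, was at 11.6, 5.63, 7.31, 15.2 and 11.6 CPM in CAC_F, 16.1, 14.0, 12.3, 16.5 and 23.0 in CAC_FP, and from 17.8 to 49.8 (median 30.0) in CAC_FPL. CAC_F and CAC_FPL did not overlap, and Ffar2 rose by 0.81 ± 0.14 per step (0.0251), 3.06-fold between the outer means. Clec2d, a lectin-like ligand of natural killer cell receptors, rose by 0.33 ± 0.056 (0.0251). In the other direction Ddx46, a helicase of the spliceosome, fell by 0.21 ± 0.036 (0.0251), from 144 to 157 CPM in CAC_F to 112 to 132 in CAC_FP, and from 102 to 129 in CAC_FPL, with CAC at 118 ± 13.4.

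NAD metabolism, which the study's title names, gave 1 call among 12 measured genes of NAD synthesis and 0 in edgeR among 23 genes that consume or methylate its parts, with median slopes of -0.004 and 0.02. At an unadjusted p below 0.05 were 3 higher and 0 lower of the 12, and 4 higher and 1 lower of the 23. The shares over all genes tested were 14.7% higher and 13.1% lower. Naprt, the enzyme through which nicotinic acid enters NAD synthesis, was at 21.9, 12.7, 22.2, 29.0 and 24.7 CPM in CAC_F, 26.4, 29.1, 31.3, 47.0 and 27.8 in CAC_FP, and from 22.0 to 54.1 (median 45.2) in CAC_FPL. CAC_FPL 6 lay inside the CAC_F range and the other 5 CAC_FPL libraries above it. Naprt rose by 0.46 ± 0.12 (edgeR adjusted p = 0.0472; exact permutation p = 0.00336, two-sided), against 45.1 ± 8.05 CPM in CAC and 48.1 ± 8.56 in NC. Nampt, which recycles nicotinamide into NAD, was at 116, 118, 112, 92.5 and 78.7 CPM in CAC_F, 109, 99.1, 136, 84.7 and 107 in CAC_FP, and from 83.5 to 149 (median 88.1) in CAC_FPL. The 3 groups overlapped throughout, and the slope was -0.04 ± 0.082 (0.769; exact permutation p = 0.571, two-sided). The NAD hydrolase gene Cd38 had a slope of -0.42 ± 0.15 (0.0927; exact permutation p = 0.02, two-sided), the deacetylase genes Sirt7 0.20 ± 0.062 (0.0713) and Sirt3 0.33 ± 0.10 (0.0714). By DESeq2 the adjusted p was 0.0393 for Cd38, 0.0321 for Sirt7 and 0.0237 for Sirt3. DESeq2 called 3 of the 12 synthesis genes higher and 0 lower. Of the 23 genes of consumption and methylation it called 3 higher and 1 lower, beside 7.5% higher and 6.64% lower of all genes with a DESeq2 adjusted p.

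Of 23 measured genes of fatty acid oxidation and its PPAR control, 17 sloped upward and 6 downward (median slope 0.16), and edgeR called 1 higher and 0 lower. Acadm, which starts the breakdown of medium-chain fatty acids, was at 56.2, 54.5, 82.3, 71.0 and 54.8 CPM in CAC_F, 99.9, 67.9, 86.6, 142 and 85.2 in CAC_FP, and from 74.6 to 172 (median 121) in CAC_FPL. CAC_F 3 lay inside the range of both other groups and the other CAC_F libraries below CAC_FPL. The slope was 0.46 ± 0.11 (edgeR adjusted p = 0.0398). The long-chain counterpart Acadl had a slope of -0.22 (0.0777). Of 26 nuclear genes of the respiratory chain and citrate cycle, 24 sloped upward (median 0.13) and 0 were called by edgeR, 8 having an unadjusted p below 0.05. Ndufb8 of complex I (0.20 ± 0.058, 0.0598) and Cox6c of complex IV (0.21 ± 0.062, 0.0599) had the smallest p-values, and by DESeq2 they had adjusted p of 0.0219 and 0.0235. Transcripts of the mitochondrial genome held 4.58% ± 0.48 of counts in CAC_F (SD, n = 5), 5.43% ± 0.67 in CAC_FP (SD, n = 5) and 5.82% ± 1.01 in CAC_FPL (SD, n = 6), a slope of 0.613 percentage points per step (exact permutation p = 0.0181, two-sided). CAC_FPL 1 and 2 were the highest of their group, at 7.05% and 6.92%, and CAC_FPL 4 was at 5.96%. CAC_FPL 3, 5 and 6, at 5.13%, 5.30% and 4.58%, lay inside the CAC_F range of 4.01% to 5.33%. CAC stood at 8.48% ± 2.79 and NC at 6.71% ± 1.18.

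Of 19 measured clock genes edgeR called 1 higher and 0 lower, and DESeq2 called 3 higher and 1 lower. Their slopes were positive for 11 and negative for 8 (median 0.01), with 6 higher and 3 lower at an unadjusted p below 0.05. Per2 (slope 0.58, edgeR adjusted p = 0.0593), Dbp (0.76, 0.169) and Bmal1 (-0.21, 0.408) were not called. The labels name no hour of tissue collection.

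The measured genes of antigen presentation, of smooth muscle, and of opioid and serotonin signalling held no call in edgeR. Of 11 MHC class II genes 10 sloped upward (median 0.37; 6 with an unadjusted p below 0.05). H2-Aa, an MHC class II chain, was at 57.6, 42.9, 67.2, 60.8 and 37.6 CPM in CAC_F, 44.1, 36.1, 31.1, 60.5 and 80.0 in CAC_FP, and from 67.9 to 151 (median 89.7) in CAC_FPL. CAC_F and CAC_FP overlapped throughout, and CAC_FPL cleared CAC_F. The H2-Aa slope was 0.45 ± 0.13 (adjusted p = 0.0616), and by DESeq2 its adjusted p was 0.0231. Without CAC_FPL 3 the slope was 0.36. CAC_FPL 3 had the highest mean log2 CPM of the 16 libraries for the class II list (6.28), for 21 B and plasma cell genes (6.33, the others 3.79 to 5.44) and for 8 genes of lymphoid follicles (5.10, the others 0.93 to 3.81). CAC_FPL 6 came next within CAC_FPL on all 3 (5.36, 5.28 and 3.81). EdgeR called 0 genes of the B cell and follicle lists (14 of 21 and 5 of 8 slopes positive), with 2 and 3 genes at an unadjusted p below 0.05, and DESeq2 called 1 of each list lower. Their part in the class II slopes was not tested. All 15 smooth muscle genes sloped upward (median 0.24; 5 with an unadjusted p below 0.05), among them Actg2, an actin of gut muscle (0.57 ± 0.17, 0.0659; by DESeq2 0.0216). The mean log2 CPM of this list was 6.63 to 7.34 in CAC_F, 5.98 to 7.57 in CAC_FP, and from 6.58 to 8.22 in CAC_FPL. With that mean as a covariate edgeR called 1386 genes, 425 of the 455 among them.

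Oprm1, the mu opioid receptor on which loperamide acts, was under the filter, with 0 counts in all CAC_F libraries, 0 to 0.223 CPM in CAC_FP, and from 0 to 0.112 CPM in CAC_FPL. At this depth no difference of Oprm1 could be measured. Of 7 measured opioid and serotonin genes edgeR called 0, and DESeq2 called 2 higher and 0 lower. Their slopes were positive for 4 and negative for 3 (median 0.03), with 3 higher and 1 lower at an unadjusted p below 0.05. Maoa, which breaks down serotonin, was at 198, 96.8, 248, 264 and 190 CPM in CAC_F, 260, 293, 286, 644 and 248 in CAC_FP, and from 192 to 663 (median 505) in CAC_FPL, with overlap of all groups. Its slope was 0.62 ± 0.17 (adjusted p = 0.0529). The serotonin receptor gene Htr4 had a slope of 0.67 ± 0.23 (0.0913), and 0.30 without CAC_FPL 3. By DESeq2 the adjusted p was 0.00633 for Maoa and 0.0494 for Htr4.

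The departure from the line passed for no gene, and the 5 genes of smallest p, predicted genes left out, are given as values (edgeR adjusted p = 0.999 for each, with unadjusted p of 0.000459 to 0.0012). Igfbp2, which binds insulin-like growth factors, was at 2.44 to 9.85 CPM in CAC_F, 1.57 to 3.85 in CAC_FP, and from 6.52 to 18.8 in CAC_FPL, so that the middle group was lowest. Rps27, a ribosomal protein gene, had the same shape, at 43.3 to 63.8, 32.2 to 53.3 and 51.6 to 88.8 CPM. Crybb3, a crystallin, was highest in the middle group, with medians of 1.17, 2.65 and 1.19 CPM, as was Dnajb13, a co-chaperone of motile cilia, at 3.42 to 5.78, 5.70 to 7.53 and 4.38 to 5.50 CPM. Lgals2, encoding galectin-2, rested on CAC_FP 3, which was at 114 CPM while the other 15 libraries were at 0.255 to 3.63.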

How the data were processed

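RNA was extracted with Trizol and made into strand-marked (dUTP) mRNA libraries, per the labels' protocols. Per the submitters' processing notes cutadapt 1.9, FastQC and HISAT2 were used; no source used here names the counting tool, its strand setting, the annotation or the build. The deposited values are raw read counts for each gene and library, stored as whole numbers, and FPKM computed by the authors. FPKM served for the filter and for 2 alternatives.

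Counts were fitted with edgeR 4.0.16 (quasi-likelihood, R 4.3.3) with TMM factors from all 27 libraries: a slope over the scores 0, 1 and 2 in 16 libraries, and a fit with a coefficient per group for the steps and the departure from a line. SE is the absolute log2 change over the square root of the F statistic, and is approximate near 0 counts. P-values were two-sided and adjusted over 15080 genes, which held 99.0% to 99.4% of counts. Permutation p-values for single genes ran over all 2018016 assignments of the 16 libraries to the groups, and were not adjusted for the number of genes. Limma 3.58.1 and DESeq2 1.42.0 were run as alternatives. The edgeR test of the slope and a limma voom fit of it were checked on simulated counts with known slopes. The other fits were not checked in this way. Floors cover counting error only.

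The members, gene lists and rule for named genes were chosen with earlier results of these data known. The rule took the 12 largest slopes in each direction among called genes that stepped the same way in both steps with a mean FPKM of at least 5 in a group, the 6 smallest adjusted p in each direction, the 5 smallest p for the departure, up to 4 called or 2 other members of each list discussed, and 10 fixed genes. Other genes given only a slope and p are list members. Promoter sequences are RefSeq's (GRCm38.p6). Strandedness of the counting being unknown, reads of antisense or overlapping genes cannot be told apart. Some results are not reported here.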

Additional observations from a re-analysis of the deposited data

Results flagged for a closer look

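In 20 of the 237 sets of 4 to 10 libraries of 1 group and gene examined, the highest or lowest library lay outside Dixon's 95% bound, and chance alone flags about 1 in 20. Values are in CPM.

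In the FOLFOX groups the single libraries that stood apart were CAC_FP 4 for Prss22 (2.56, the lowest of its group), Hao2 (77.1, the highest) and Hbb-bt (0.0418, the highest, with the others at 0). CAC_F 2 was the lowest of its group for Anxa13 (0.216), Mptx2 (0.108) and Hba-a2 (0.0, with the others at most at 0.048). CAC_FPL 3 was the highest for Sval1 (421.0) and CAC_FPL 6 the highest for Nampt (149.0). CAC_FP 3 was the highest for Lgals2 (114.0).

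In the reference groups CAC 2 stood apart for 6 genes: Spink6 (0.226), Mptx2 (169.0), Mptx1 (89.3) and Sval1 (103.0) were highest there, and Anxa13 (6.5) and Naprt (31.2) lowest. CAC 5 was the highest for Thrsp (5.71) and CAC 1 the lowest for Crybb3 (0.122). NC 2 was the highest for Lgals2 (1.53), NC 6 for Dnajb13 (9.34) and NC 4 for Hoxa13 (38.8).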

How the results depend on the processing

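The number of trend calls was 455 (268 higher, 187 lower). It became 25 (9 and 16) without a filter, 642 (356 and 286) at a mean FPKM of at least 5, 2000 (1061 and 939) with DESeq2, 940 (484 and 456) with voom and library weights, 146 (54 and 92) with voom and quantile normalization, 1867 (1062 and 805) with all 27 libraries, 1386 (784 and 602) with the smooth muscle covariate and 774 (427 and 347) with the distal Hox covariate. Limma called 153 genes higher on log2(FPKM + 1) and 166 on log2(FPKM + 0.1). With CAC_FP scored 0.5 the calls were 5 (5 and 0), with a score of 1.5 636, 298 of them lower, and without CAC_F replicates 1 and 2 together 0 (0 and 0). Leaving out 1 library gave 0 to 1322 calls, 0 to 736 higher and 0 to 659 lower. The 455 genes, chosen by their slope in the same libraries, all kept their sign in the fits with all 27 libraries, DESeq2, the score of 1.5 and the 3 covariates.

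The outer comparison, 254 calls, gave 0 without a filter, 482 at the higher filter, 1965 with DESeq2, 2515 with library weights, 81 with quantile normalization, 1838 with all 27 libraries, 786 and 1226 with the smooth muscle and distal Hox covariates, 121 and 77 with limma on FPKM at pseudocounts of 1 and 0.1, 2 with the adipocyte covariate (chosen after seeing the data), 0 without CAC_F replicates 1 and 2 together, and 0 to 991 without single libraries. The departure went from 0 to 2 with DESeq2 and to 0 to 1 without single libraries. The first step went from 0 to 64 with DESeq2, 3 with library weights, 1 without CAC_F replicates 1 and 2 together and 0 to 1 without single libraries. The second step went from 0 to 12 with DESeq2 and to 0 to 1 without single libraries.

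Replicate numbers are shared between the groups, but 4 of 15 same-numbered pairs had deviations correlated above 0.1: 4 of the 5 between CAC_F and CAC_FP (-0.14 to 0.36) and 0 of the 10 that involve CAC_FPL (-0.47 to 0.07). As not every pair passed, the numbers were not taken to pair the libraries, and 1 of 15 libraries correlated best with its own number. With the replicate block the trend gave 0 calls (0 higher, 0 lower) and the outer comparison 0.

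Slopes that changed sign were not called. They were Nampt (0.0085 without CAC_F replicates 1 and 2 together) and Hoxa13 (0.0018 with the smooth muscle covariate, 0.13 at the score of 0.5, and -0.90 to 0.15 without single libraries). The departure of Lgals2 became 0.63 with the distal Hox covariate and lay between -9.69 and 0.41 without single libraries, the latter without CAC_FP replicate 3. The causes of these changes were not tested. No slope was fitted for genes under the filter, such as Oprm1.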
